A study of Mus musculus with 4 samples.

Results

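The mouse orthologues of 7 human risk genes for steatotic liver disease were examined in 4 livers: Pnpla3, Tm6sf2, Mboat7, Gckr, Hsd17b13, Marc1 and Trib1. They were chosen by gene symbol, and all 7 had a row of their own among the 24138 rows of the deposited expression table. The row of Pnpla3 shares its span with that of Mir6392, a microRNA gene listed at 0 in all 4 livers. The span may therefore be that of merged genes. The livers came from male C57BL/6J mice aged 18 weeks. All 4 had the same history, a diet named FAT-MASH in the labels, which models metabolic dysfunction-associated steatohepatitis (MASH, in which fat, inflammation and scarring build up in the liver), and treatment with resolvin D1 (RvD1), which is formed from docosahexaenoic acid and acts in the resolution of inflammation. Poly(A)-enriched RNA was sequenced in bulk from each liver. The livers form 1 group, numbered 1 to 4 in the labels, and neither untreated nor diet-only livers were analysed here. The values therefore give the level of each gene and its spread between livers. They cannot show what RvD1 or the diet did. The labels do not state that each liver came from a separate animal, so the spread may be partly technical.

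Variants near these genes are known from human genetics to go with liver fat, liver enzymes or progression of liver disease, and the proteins act at different points of hepatic lipid and glucose handling. Pnpla3 and Hsd17b13 encode proteins that sit on lipid droplets. Tm6sf2 encodes a membrane protein of the endoplasmic reticulum that is needed to load lipid onto very-low-density lipoprotein. Mboat7 encodes an acyltransferase that puts arachidonic acid into phosphatidylinositol, and Marc1 encodes an enzyme of the outer mitochondrial membrane. Gckr encodes a regulatory protein of hepatic glucose metabolism, and Trib1 a pseudokinase that brings a ubiquitin ligase to its targets. The tissue label was checked against 7 hepatocyte markers: 6 were abundant, with a summed level of 31485 to 39692 FPKM over the livers, and Alb was listed at 0 in all 4. FPKM are fragments scaled by transcript length and by the size of the library, so levels of different genes can be set side by side. Alb is listed at 0 in a tissue that makes it in quantity, so a 0 in this table can be a failed estimate. None of the 7 risk gene orthologues was listed at 0 in any liver.

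The sequence upstream of the start site is shown for 3 genes: the gene with the lowest level and widest spread (Pnpla3), the gene with the highest level (Hsd17b13), and Marc1, whose window holds a motif found in few other windows. RefSeq promoter windows (GRCm38.p6) were matched for 5 of the 7 genes, and the 250 bases before the start are printed 5′ to 3′ on the strand of the gene. The windows are chr15:84167566-84167815 on the plus strand for Pnpla3, chr5:103977389-103977638 on the minus strand for Hsd17b13 and chr1:184811301-184811550 on the minus strand for Marc1. In each case the RefSeq start is also the first transcribed base of the span in the deposited table. Capitals mark motif matches in Pnpla3 (GC boxes, an inverted CCAAT box and a cAMP response element) and in Marc1 (a GC box and a sterol regulatory element with a free base).
Pnpla3: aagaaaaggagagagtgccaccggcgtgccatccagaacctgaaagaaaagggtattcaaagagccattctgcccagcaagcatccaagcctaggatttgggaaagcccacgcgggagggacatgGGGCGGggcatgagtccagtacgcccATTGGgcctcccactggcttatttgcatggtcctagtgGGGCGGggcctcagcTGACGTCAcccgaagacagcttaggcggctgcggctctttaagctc
Hsd17b13: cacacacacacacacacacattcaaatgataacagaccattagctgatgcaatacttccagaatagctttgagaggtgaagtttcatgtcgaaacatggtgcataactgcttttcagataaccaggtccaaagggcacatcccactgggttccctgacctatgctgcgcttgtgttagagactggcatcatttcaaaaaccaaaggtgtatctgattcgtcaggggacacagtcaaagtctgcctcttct
Marc1: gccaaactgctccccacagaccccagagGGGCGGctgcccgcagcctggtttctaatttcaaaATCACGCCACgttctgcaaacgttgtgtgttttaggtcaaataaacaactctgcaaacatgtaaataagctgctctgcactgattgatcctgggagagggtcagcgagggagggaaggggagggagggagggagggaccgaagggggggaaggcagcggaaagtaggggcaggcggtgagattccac
Both strands were searched. The cAMP response element TGACGTCA starts 46 bases before the start of Pnpla3 and is present in 1.55% of 32851 windows of this length. GC boxes (GGGCGG) start 125 and 61 bases before the start, and the CCAAT match at 99 bases, motifs that are present in 32.7% and 33.8% of windows. The other matches to these motifs were a GC box starting 222 bases before the start of Marc1, a GC box at 20 bases in Mboat7 and a CCAAT match at 9 bases in Gckr. In Marc1 the sterol regulatory element, with any base allowed at the sixth position, starts 187 bases before the start, and 0.192% of windows hold it. Its strict form, present in 0.0731% of windows, was found in none of the 5 genes' windows, nor were the E-box CACGTG (6.02% of windows) and the TATA box TATAAA (12.4%). The Hsd17b13 window held none of the motifs searched. It had 44.8% GC and 3 CpG, against medians of 52.4% and 6 over all windows, whereas Pnpla3 had 58.4% and 11 and Mboat7 58.0% and 19. The motif with the free base, the cAMP response element, the GC box and the CCAAT box were added after the sequences had been read. A match is a stretch of letters and was not tested for binding.

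The 7 genes spanned a wide range of levels. Their means ran from 592 FPKM for Hsd17b13 to 1.57 FPKM for Pnpla3, a ratio of 377. All 7 reached a mean of 1 FPKM, the level used here to call a gene expressed, as did 43.7% of all rows. The median expressed gene had a mean of 7.83 FPKM, and 6 of the 7 lay above it. The order by mean was Hsd17b13, Marc1, Gckr, Tm6sf2, Trib1, Mboat7 and Pnpla3. Of the 6 pairs of neighbours in this order, 4 had ranges over the livers that did not overlap. The exceptions were Tm6sf2 and Trib1, whose ranges met between 16.97 and 17.3 FPKM although Tm6sf2 was higher in 4 of 4 livers, and Trib1 and Mboat7, of which Trib1 was higher in 3 of 4. Without liver 1 these last genes changed places, with means of 16.2 FPKM for both.

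**Figure D1:**
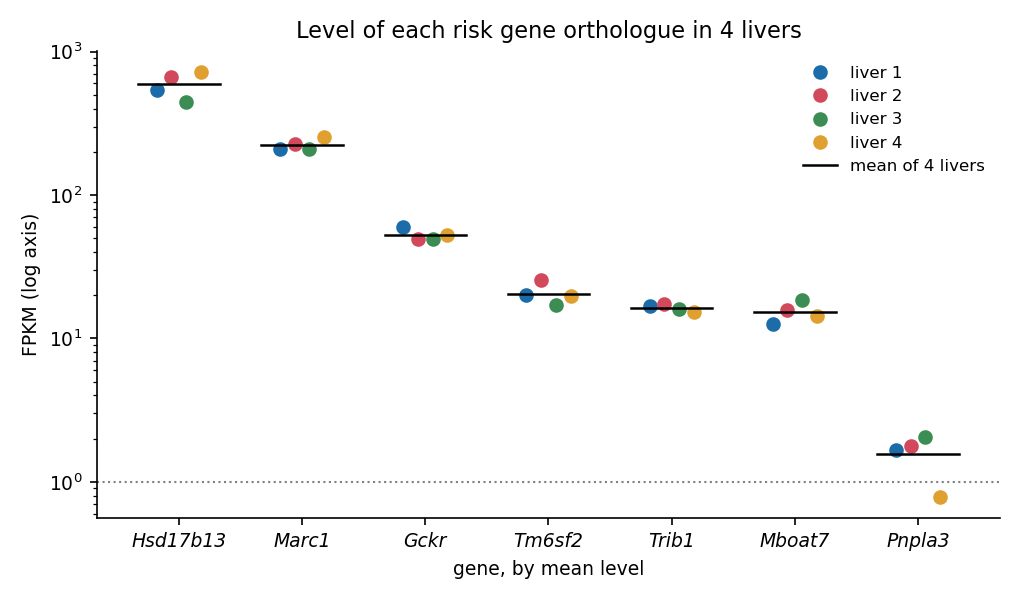
FPKM on a log axis of the 7 genes in each of the 4 livers (points, coloured by liver) with the mean (black line) and a dotted line at 1 FPKM. Hsd17b13, Marc1, Gckr and Pnpla3 are separated from their neighbours in the order by more than the range of the livers, Tm6sf2, Trib1 and Mboat7 have means between 15.3 and 20.5 FPKM, and liver 4 is below 1 FPKM for Pnpla3.

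Hsd17b13, which encodes a lipid droplet protein with retinol dehydrogenase activity, was the most abundant of the 7 (XLOC_016670, chr5:103955442-103977388). In livers 1 to 4 its level was 543, 661, 442 and 721 FPKM. Liver 4 was the highest and liver 3 the lowest, a 1.63-fold range, and the mean was 592 ± 124 FPKM (SD, n = 4). On the log2(FPKM + 1) scale its SD was 0.31, wider than that of 91.5% of expressed genes, and 0.21 without liver 3. Its level exceeded that of 98.8% of expressed genes. The paralogue Hsd17b11, which also encodes a lipid droplet protein and begins 12.4 kb away, had 181, 168, 192 and 257 FPKM and was likewise highest in liver 4. The level of Hsd17b13 was 3.01 ± 0.681 times that of Hsd17b11 (SD, n = 4), with the ratio between 2.30 in liver 3 and 3.93 in liver 2. Plin2, which encodes the main coat protein of hepatic lipid droplets, was listed at 478, 314, 313 and 426 FPKM, with liver 1 on top.

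Among 6537 other genes with means of 5 FPKM or more, the profiles nearest to that of Hsd17b13 over the 4 livers were those of Ctsz, Scamp1, Bcap29, Cd68 and Eif1ax. Nearness was the root mean square difference of centred log2 values, which was 0.016 to 0.029 for these 5, and 155 genes lay within 0.1. A profile over only 4 livers holds few values, and the cause of this nearness was not tested. Cd68, which encodes a lysosomal protein of macrophages, had 25.2, 29.6, 19.8 and 32.3 FPKM. The 6 macrophage markers examined summed to 146, 190, 147 and 197 FPKM in livers 1 to 4, and 5 of the 6 reached a mean of 1 FPKM. That sum was mostly Lyz2, which had 94.9, 127, 100.4 and 135 FPKM. Clec4f, a marker of Kupffer cells, had 10.001, 11.1, 8.39 and 11.7 FPKM, the same order of livers as Hsd17b13 and Cd68. The remaining markers differed: Csf1r was higher in liver 3 (14.0 FPKM) than in liver 4 (13.4 FPKM), Adgre1 was highest in liver 2 and Timd4 in liver 1. Their part in the Hsd17b13 values was not tested. In bulk tissue, fewer cells of a type and less RNA per cell cannot be told apart.

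Marc1 (XLOC_001282, chr1:184786767-184811300) had 210, 226, 210 and 252 FPKM in livers 1 to 4. Livers 1 and 3 were nearly equal and liver 4 was the highest. Liver 4 also had the largest FPKM summed over all rows, 570681 against 516816 to 524394 in the others. The mean of 224 ± 20.3 FPKM (SD, n = 4) was above that of 96.3% of expressed genes, while the SD of 0.13 was wider than that of 32.3% only. The SD was 0.061 without liver 4 and 0.069 with equal totals apart from the 100 most abundant genes. The product reduces N-hydroxylated compounds with electrons passed on by cytochrome b5 and its reductase. Marc2, the paralogue 1.77 kb away, had 233, 207, 233 and 271 FPKM, so that both genes were present at close to the same level. Their ratio was 0.955 ± 0.0896 (SD, n = 4), and Marc1 exceeded Marc2 in liver 2 alone, where the ratio was 1.09. None of the 2103 windows of 50 bases in the longest coding Marc1 transcript occurred in a transcript of another gene, Marc2 included. The electron donors were at levels of the same order: Cyb5b had 115 ± 8.54 FPKM and Cyb5r3 436 ± 60.8 FPKM (each SD, n = 4).

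Gckr (XLOC_015757, chr5:31297581-31327302) had 59.6, 49.03, 49.6 and 52.5 FPKM in livers 1 to 4. Liver 1 was the highest and the other livers lay between 49.03 and 52.5 FPKM. The mean was 52.7 ± 4.86 FPKM (SD, n = 4) with an SD of 0.13 on the log2 scale, which was 0.051 without liver 1. Its protein is a hepatocyte regulator of glucose metabolism. The hexokinase genes Hk1, Hk2 and Hk3 were low, with means of 1.49 FPKM for Hk1, 0.482 FPKM for Hk2 and 1.26 FPKM for Hk3.

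Among 8 genes that follow the feeding state, Pck1, which encodes a rate-controlling enzyme of gluconeogenesis, had 1135, 903, 767 and 873 FPKM. Igfbp1, an insulin-repressed gene, had 59.3, 103.9, 19.6 and 20.1 FPKM, so that livers 3 and 4 were low. The list did not move as one: G6pc, which encodes glucose-6-phosphatase of gluconeogenesis, had 131, 134, 242 and 149 FPKM and was highest in liver 3, as were Fgf21 and Angptl4. Of the 8 genes, 4 were highest in liver 3 and 3 were lowest there, against 26.8% and 31.4% of all expressed genes. The feeding state at collection is not given in the labels.

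Tm6sf2 (XLOC_020730, chr8:70072924-70080066) had 19.9, 25.5, 16.97 and 19.6 FPKM in livers 1 to 4. Liver 2 was the highest and liver 3 the lowest, while livers 1 and 4 were close. The mean was 20.5 ± 3.60 FPKM (SD, n = 4) and the SD of 0.23 was wider than that of 77.6% of expressed genes. Without liver 2 the SD was 0.12. Among the partners set beside it, Apob, which encodes the structural protein of very-low-density lipoprotein, had 319 ± 27.5 FPKM, and Mttp, whose product transfers lipid onto it, had 85.9 ± 4.05 FPKM (each SD, n = 4). Their SDs on the log2 scale were 0.12 and 0.067. Erlin1 and Erlin2, which encode binding partners of the Tm6sf2 protein in the endoplasmic reticulum, had 18.3 ± 0.259 and 10.6 ± 0.692 FPKM (each SD, n = 4). The paralogue Tm6sf1 was at 1.48, 1.78, 1.21 and 0.455 FPKM. The nearest profiles to that of Tm6sf2 were those of Rheb, Xkr9, Lims1, Tardbp and Klk1b4, at 0.012 to 0.032, and 214 genes lay within 0.1. Liver 2 was the liver with the highest acute phase transcripts, all 9 of which peaked there, at a median of 1.30 above their mean on the log2 scale. Of these 9, 8 were lowest in liver 3. The 5 stellate cell markers summed to 194, 253, 160 and 184 FPKM, with liver 2 the highest and liver 3 the lowest, as for Tm6sf2. That sum was mostly Dcn (140, 194, 117 and 141 FPKM) and Col1a1 (41.0, 46.9, 31.7 and 32.5 FPKM), the only stellate markers with this pattern. Des and Lrat were highest in liver 1 and lowest in liver 4, and Reln was highest in liver 4. The endothelial markers Stab2 and Pecam1 were also highest in liver 2 and lowest in liver 3, whereas Kdr was lowest in liver 1 and Clec4g highest in liver 4. The part of any of these in the Tm6sf2 values was not tested.

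Trib1 (XLOC_007007, chr15:59648654-59657099) had the smallest SD of the 7. Its values were 16.8, 17.3, 15.9 and 15.4 FPKM in livers 1 to 4. The highest was 1.12 times the lowest, and the mean was 16.3 ± 0.852 FPKM (SD, n = 4). Its SD of 0.071 was wider than that of 8.04% of expressed genes. This place was not stable: with equal totals apart from the 100 most abundant genes its SD was 0.111, above the 0.069 of Marc1 and wider than that of 26.1% of expressed genes. Without liver 1 Gckr (0.051) lay below Trib1 (0.081), and without liver 3 Trib1 exceeded 21.8% of expressed genes. Its protein links the ubiquitin ligase COP1 to the transcription factor C/EBPα and to other targets. The ligase transcript, listed as Rfwd2, had 7.84 ± 1.06 FPKM (SD, n = 4). Cebpa had 142, 181, 293 and 160 FPKM and Cebpb 132, 273, 213 and 123 FPKM, so that both transcription factors varied over 2.06-fold and 2.23-fold ranges where Trib1 did not exceed 1.12-fold. The other tribbles genes were lower: Trib2 had 0.846 FPKM and Trib3, a gene of the integrated stress response, had 4.79, 2.88, 2.11 and 3.07 FPKM.

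Mboat7 (XLOC_019331, chr7:3677789-3693525) had 12.6, 15.7, 18.6 and 14.4 FPKM in livers 1 to 4. Liver 3 was the highest and liver 1 the lowest, a 1.48-fold range, and the mean was 15.3 ± 2.54 FPKM (SD, n = 4). Its SD of 0.22 was wider than that of 74.1% of expressed genes. Its protein acts on lysophosphatidylinositol. Of the genes for phosphatidylinositol synthesis, Cdipt, the phosphatidylinositol synthase, had 24.3 ± 1.93 FPKM and Cds2, which supplies CDP-diacylglycerol, 13.5 ± 0.437 FPKM (each SD, n = 4). Lpcat3, the related acyltransferase that acts mainly on lysophosphatidylcholine, had 80.4 ± 4.68 FPKM (SD, n = 4), 5.32 times Mboat7 on average. The other lysophospholipid acyltransferase genes of the family, Mboat1 and Mboat2, had means of 0.447 and 0.0173 FPKM. Tsen34, on the opposite strand, overlaps the Mboat7 span in GENCODE vM21, and 6.36% of the 50-base windows of the longest coding Mboat7 transcript occur in Tsen34 transcripts. Tsen34 had 20.8 ± 0.903 FPKM (SD, n = 4), and the strand setting of the quantification is not given in the sources used here, so reads of that stretch cannot be told apart.

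Pnpla3 (XLOC_007142, chr15:84167816-84189521) stood lowest in level and, on the log2(FPKM + 1) scale with liver 4 included, widest in spread. Livers 1 to 4 had 1.66, 1.79, 2.04 and 0.789 FPKM. Liver 4 was low and the other livers lay close together, so that liver 4 had 43.1% of the mean of the other 3, which was 1.83 ± 0.194 FPKM (SD, n = 3). The mean over all livers was 1.57 ± 0.544 FPKM (SD, n = 4). Its highest value was 2.59 times its lowest, and Pnpla3 was the only 1 of the 7 genes with a range of 2-fold or more, a range that 6.54% of expressed genes reached. The range fell under 2-fold without liver 4. The SD of 0.34 was wider than that of 93.7% of expressed genes and of 91.7% of the 1417 expressed genes between 1 and 2 FPKM. Without liver 4 it was 0.098, wider than that of 26.5% of expressed genes, and with a pseudocount of 5 in place of 1 it exceeded 59.99%. At that pseudocount the Pnpla3 SD of 0.1236 lay below that of Hsd17b13 (0.31), Tm6sf2 (0.20), Mboat7 (0.18) and, narrowly, Marc1 (0.1243). With the estimated depth and the 1313 bases of its only coding transcript in GENCODE vM21, the values stand for only about 37, 39, 44 and 17 fragments in livers 1 to 4. The deposited span ends at 84189521, beyond the GENCODE end at 84187236. A longer transcript would raise these estimates, so they may be too low. Of the 50-base windows of the 1313-base transcript 4.51% also occur in Gm49513, so reads of that stretch cannot be told apart. Gm49513 is a non-coding gene that overlaps Pnpla3 on the same strand in GENCODE vM21. For Hsd17b13 the shared windows were 0.663%, all with Agbl2, and for the remaining genes apart from Mboat7 there were none. With the estimates for 1313 bases, counting alone would give Pnpla3 a coefficient of variation of 15.0% to 24.6% in a liver. For the other 6 genes the same calculation with the longest coding transcript gave about 413 fragments or more in each liver. With the shortest it gave 37 to 53 for Mboat7, as few as for Pnpla3, and 163 to 207 for Gckr.

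**Figure D2:**
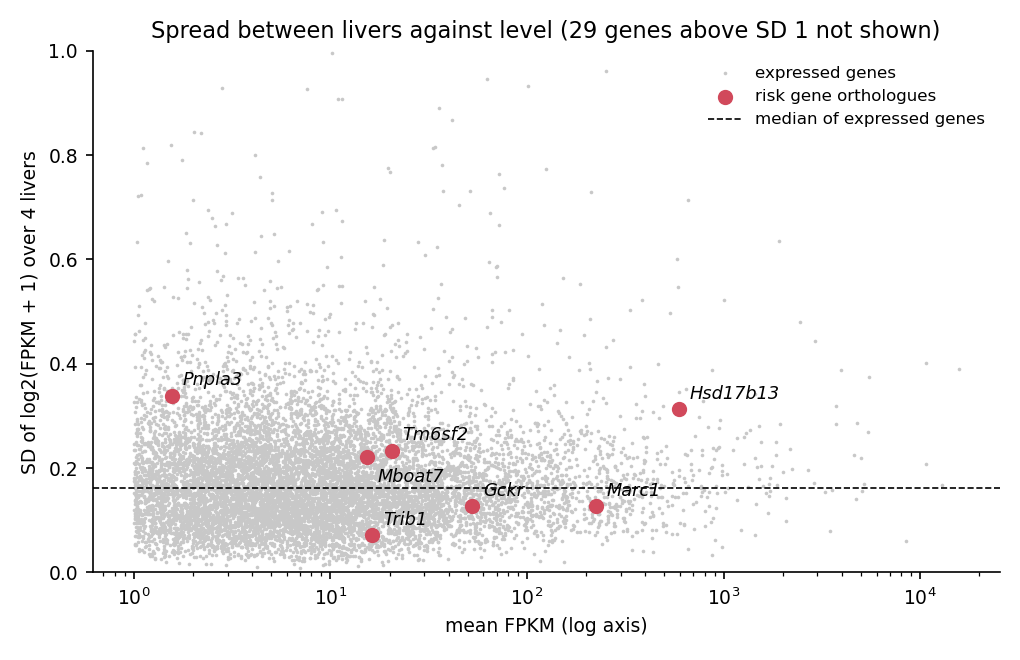
SD of log2(FPKM + 1) over the 4 livers against mean FPKM (log axis) for expressed genes (grey), with the 7 genes in red and the median SD of expressed genes as a dashed line. Pnpla3, Hsd17b13, Tm6sf2 and Mboat7 lie above the dashed line at 0.16, and Gckr, Marc1 and Trib1 below it; 29 genes with an SD above 1 are not shown.

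Pnpla3 encodes an acylhydrolase of lipid droplets that is induced in mouse liver by the lipogenic transcription factors SREBP1c and ChREBP. Its relative Pnpla2, the main triglyceride lipase, was far more abundant, at 63.8, 60.1, 61.04 and 74.4 FPKM, which was 29.9 to 94.3 times Pnpla3 in the same liver. Abhd5, which activates Pnpla2 and is bound by the Pnpla3 protein, had 10.4 ± 0.838 FPKM (SD, n = 4). Of the other relatives, Pnpla8 had 34.2 ± 5.02 FPKM, Pnpla7 28.7 ± 4.79 FPKM and Pnpla6 2.97 ± 0.848 FPKM (each SD, n = 4), while Pnpla5 had 0.469 FPKM and Pnpla1 was listed at 0. Mouse Pnpla3 is abundant in adipose tissue. The adipose markers summed to 2.86, 0.961, 0.609 and 4.49 FPKM in livers 1 to 4, but this sum was almost wholly Cfd, which had 2.81, 0.961, 0.556 and 4.49 FPKM. Adipoq, the more defining adipocyte gene, was at 0.0480 and 0.0528 FPKM in livers 1 and 3 and at 0 in livers 2 and 4, and Lep and Plin1 were listed at 0 in all livers. The part of adipose tissue in the Pnpla3 values was not tested.

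The lipogenic genes were set beside Pnpla3. Of 17 listed regulators and enzymes, 16 reached a mean of 1 FPKM and Scd1 was listed at 0 in all livers. The pattern of Pnpla3, highest in liver 3 and lowest in liver 4, was found in 6 of the 16 (37.5%) and in 7.29% of all expressed genes. This pattern was picked after the Pnpla3 values had been seen. After centring on genes of like GC content, described below, Pnpla3 was highest in liver 2 instead of liver 3. The 6 genes were Mlxipl, Fasn, Acly, Elovl6, Acacb and Pklr. Mlxipl, which encodes ChREBP, was listed at 53.01, 48.2, 79.9 and 38.7 FPKM. Fasn, the fatty acid synthase, had 237, 176, 286 and 132 FPKM, and Acly, which supplies its acetyl-CoA, had 111, 89.9, 119 and 58.4 FPKM. Acacb, which makes the malonyl-CoA that restrains fatty acid oxidation, had 29.98, 29.9, 33.1 and 21.6 FPKM and was among the 5 profiles nearest to Pnpla3 of 6538 genes, with Foxo3, Ppp1r35, Pced1a and BC037034. These 5 lay at 0.058 to 0.078, and 9 genes lay within 0.1. Srebf1 had 166, 135, 207 and 175 FPKM, high in liver 3 like Pnpla3 but lowest in liver 2. Thrsp, a lipogenic gene of hepatocytes, had 1215, 1267, 2012 and 1289 FPKM, whereas Elovl5, Me1 and Insig2 were lowest in liver 3. Insig2, which encodes a protein that holds SREBP in the endoplasmic reticulum, had the opposite pattern to Pnpla3, with 60.0 FPKM in liver 3 and its highest value, 84.2 FPKM, in liver 4. The median deviation of the 16 genes from their means was 0.16 in liver 3 and -0.16 in liver 4 on the log2 scale.

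**Figure D3:**
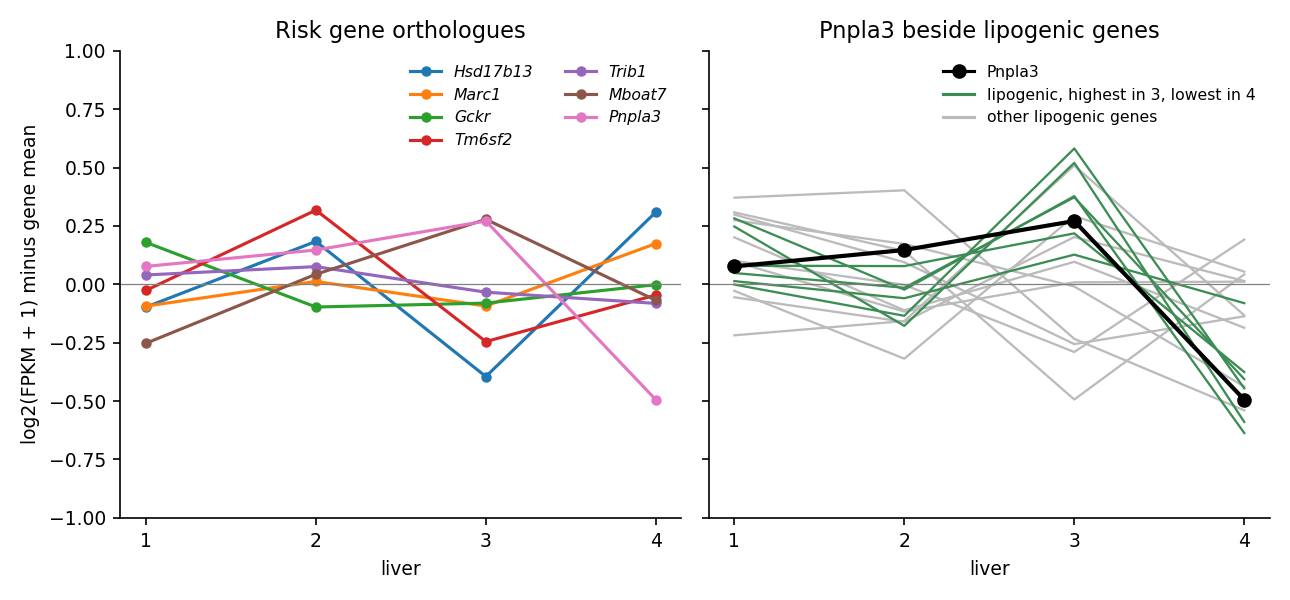
Deviation of log2(FPKM + 1) from each gene's mean in livers 1 to 4, which have no order and are joined only to mark the gene; left, the 7 risk gene orthologues; right, Pnpla3 (black), the 6 lipogenic genes that are highest in liver 3 and lowest in liver 4 (green) and the other 10 lipogenic genes (grey). Pnpla3 lies at -0.49 in liver 4 and at 0.27 in liver 3, and the green genes have the same extremes.

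The 7 genes did not share a profile over the livers. Liver 1 held the highest value of 1 gene, and livers 2, 3 and 4 that of 2 genes each; over all expressed genes the shares were 17.9%, 22.0%, 26.8% and 33.3% for livers 1 to 4. The lowest value was in liver 2 for 1 gene and in livers 1, 3 and 4 for 2 genes each, against shares of 20.7%, 29.9%, 31.4% and 18.1% for livers 1 to 4. These counts were not tested against the shares. In particular Hsd17b13 and Mboat7 were opposed in liver 3, at -0.39 and 0.28 from their means on the log2 scale. None of the 7 had a liver that stood apart by the gap between the extreme liver and its neighbour divided by the range, set against Dixon's 95% critical value for 4 samples. Of all expressed genes 5.46% passed it. Pnpla3 came nearest, with a ratio of 0.746, and with median-ratio scaling Gckr passed it (0.910, liver 1 high). The median SD of the 7 was 0.22 and that of all expressed genes 0.16, and 4 of the 7 lay above the latter.

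Deviations between the livers followed the GC content of the transcripts, which touches the contrasts of liver 3 with livers 2 and 4. Whether this comes from the libraries or from expression was not tested. Among 10162 expressed genes with an annotated transcript, split into 5 equal groups by GC content, the group with the lowest GC had a median deviation of -0.12 in liver 3 and 0.071 in liver 4. The group with the highest GC had 0.11 in liver 3 and -0.012 in liver 4. In liver 2 the medians went from 0.066 in the lowest to -0.074 in the highest group, and in liver 1 they stayed between -0.022 and -0.00093. Pnpla3 (58.4% GC) and Mboat7 (56.4%) belong to the group with the highest GC and Hsd17b13 (45.9%) to the next to lowest. After each liver was centred on genes of like GC content, Pnpla3 still lay at -0.47 in liver 4 and its highest value moved from liver 3 (0.15) to liver 2 (0.22). Its gap ratio rose to 0.837, past the critical value. Hsd17b13 lay at -0.32 in liver 3 and 0.25 in liver 4, with an SD of 0.25, and Tm6sf2, at 0.42 in liver 2 and -0.32 in liver 3, widened to an SD of 0.31. The number of lipogenic genes highest in liver 3 and lowest in liver 4 was then 5 of 16, and 9.55% of all genes had that pattern. Pnpla3 itself no longer had it. This centring was chosen after the data had been seen.

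**Figure D4:**
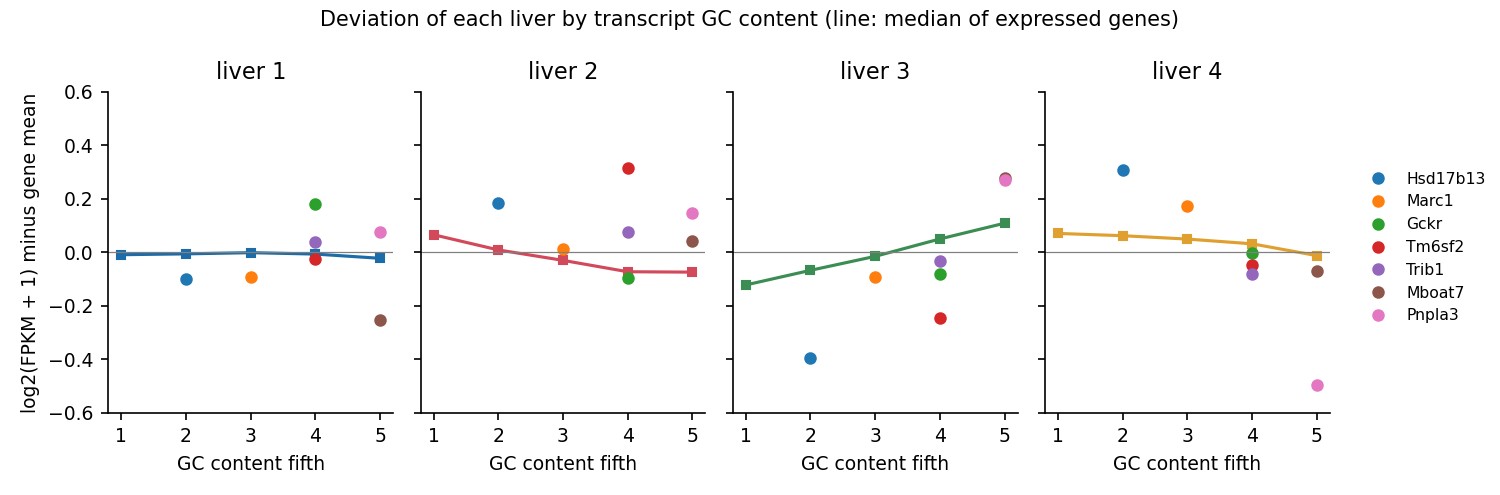
Deviation of log2(FPKM + 1) from the gene mean in each liver against transcript GC content in 5 equal groups of expressed genes, from the lowest (1) to the highest (5); squares joined by a line are medians of all expressed genes in the group and circles are the 7 risk gene orthologues. The line rises with GC in liver 3, from -0.12 to 0.11, and Hsd17b13 in liver 3 and Pnpla3 in liver 4 lie farther from 0 than the line.

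Across the lists set beside the 7 genes, a 2-fold range was found for 4 of 22 expressed genes of the members' protein families, 3 of 18 partners of their proteins and 3 of 16 lipogenic genes. The counts were 2 of 8 feeding-state genes, 0 of 7 periportal genes, 2 of 7 pericentral genes and 9 of 9 acute phase genes, against 6.54% of all expressed genes and 1 of the 7 risk gene orthologues. The median SD was 0.21 for the families, 0.12 for the partners and 0.29 for the lipogenic genes. It was 0.27 for the feeding-state, 0.16 for the periportal, 0.33 for the pericentral and 0.95 for the acute phase genes. Markers of cells other than hepatocytes were present at lower levels: endothelial markers summed to 36.3 to 46.2 FPKM over the livers, cholangiocyte markers to 17.6 to 21.9, neutrophil markers to 7.61 to 15.7 and lymphocyte markers to 2.49 to 3.83 FPKM. Erythroid markers summed to 427 to 1076 FPKM, lowest in liver 3. That sum was mostly the 2 Hba-a1 rows, whereas Alas2 was highest in liver 3, at 55.8, 43.8, 64.0 and 57.0 FPKM.

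Human association signals often cover several genes, so the level of the neighbouring rows was examined at each locus. The 2 nearest rows on either side were taken, 28 in all, of which 18 reached a mean of 1 FPKM and 6 were listed at 0. The risk gene orthologue was the highest of the 5 rows at 4 of 7 loci, those of Hsd17b13, Gckr, Tm6sf2 and Trib1. Neighbour rows were taken whatever their level, whereas the 7 genes were all expressed. The share of other expressed genes that are the highest of such 5 rows was not computed. The count therefore says nothing particular about these loci. At the Pnpla3 locus Samm50, which encodes a part of the mitochondrial outer membrane assembly machinery and begins 2.71 kb away, had 73.2 ± 5.86 FPKM (SD, n = 4), 46.6 times Pnpla3. Parvb, farther along, had 1.18 FPKM. Next to Tm6sf2, Sugp1 had 7.05 ± 1.35 FPKM (SD, n = 4), Mau2 3.74 FPKM and Hapln4 3.13 FPKM, and Ncan, a brain proteoglycan gene, was listed at 0. Beside Mboat7 lay the ribosomal protein gene Rps9 at 394 ± 57.01 FPKM (SD, n = 4) and Tsen34. Cnot3 and Leng1, at 6.76 and 4.47 FPKM, share a span in the table and may hold merged genes. Next to Gckr, Fndc4 had 9.77 FPKM, Ift172 2.89 FPKM and Zfp512 2.12 FPKM. At the Hsd17b13 locus Klhl8 had 0.856 FPKM and Nudt9 34.2 ± 4.77 FPKM (SD, n = 4), and Hlx, on the far side of Marc1, had 4.89 FPKM. Trib1 lies in sparse surroundings: Nsmce2, 46.97 kb away, had 10.8 FPKM, and the rows on the other side had a mean of 0.0316 FPKM (Gm19510) or were listed at 0.

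**Figure D5:**
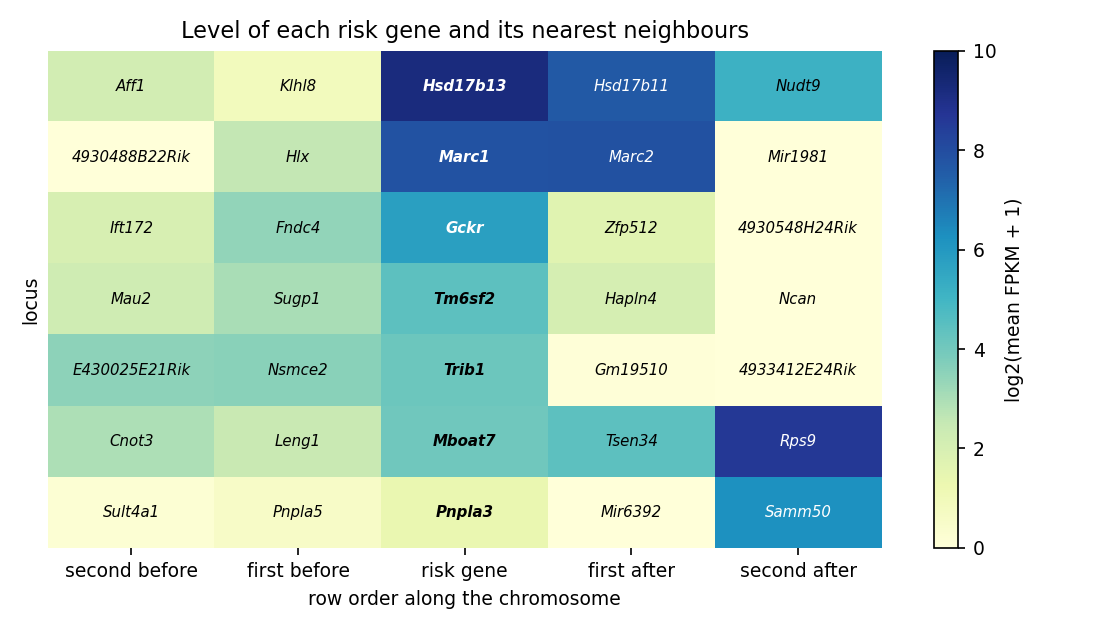
Mean level, as log2(mean FPKM + 1) in colour, of each risk gene orthologue (centre column, bold) and of the 2 nearest rows before and after it along the chromosome, 1 locus per line. Marc1 and Marc2 have nearly the same colour, Samm50 is far darker than Pnpla3, and Rps9 is the darkest of the Mboat7 locus.

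A further 21 symbols from human genetic studies of steatotic liver were examined for comparison, of which 20 were in the table, 19 reached a mean of 1 FPKM and Apoe was listed at 0. Their median mean was 16.95 FPKM and their median SD 0.14. A 2-fold range was found for 2 of the 19, against 6.54% of all expressed genes. Lpin1, which encodes a phosphatidate phosphatase and coactivator, had 33.5, 54.3, 44.7 and 16.4 FPKM, with liver 4 lowest as for Pnpla3. Ppp1r3b, which targets protein phosphatase 1 to glycogen, had 34.7, 55.8, 91.5 and 74.1 FPKM. Cideb, a lipid droplet and lipoprotein gene, had 316 ± 49.2 FPKM, and Gpam, the mitochondrial glycerol-phosphate acyltransferase, 66.7 ± 13.7 FPKM (each SD, n = 4).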

How the data were processed

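RNA from 4 livers was measured. The deposited table gives 1 value per gene and liver, and its header names no unit. The deposited values were taken as FPKM made by the authors, because they are not whole numbers and the identifiers have the form written by Cufflinks. Per the submitters' processing notes FastQC 0.10.1, Trim Galore 0.6.3, cutadapt, STAR 2.7.6a, Cufflinks 2.2.1 and the build mm10 were used; the annotation and the strand setting are not given in the sources used here. Columns were matched through the sample descriptions, and 0 were left unmatched. Starts were raised by 1, since 52.2% of 22482 symbols then equal the RefSeq start in GRCm38 and 3.01% do as deposited.

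Values were analysed as log2(FPKM + 1), which understates differences of low genes, with Python 3.11.15, numpy 2.4.6 and pandas 2.3.3. With 1 group no comparison between groups was tested. An FPKM table holds no counts. The depth, estimated from the lowest values of genes with a single GENCODE vM21 transcript, was about 18.8 to 20.1 M fragments (M, mega) per liver. The statistics were tested on simulated data. The genes named are the 7 members, 8 lists holding 112 symbols, 109 of them in the table, 9 lists of cell type markers, the 2 nearest rows on each side, and, for members with an SD above the upper quartile, the 5 nearest profiles. Members and lists were chosen with earlier results of these data known. A gene of these lists is not reported here. Alternatives were other pseudocounts (0.1 and 5), minimum levels, scalings and leaving out each liver.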

Additional observations from a re-analysis of the deposited data

Results flagged for a closer look

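The extreme liver of 9 named genes stood apart, with a gap to the next liver, as a share of the whole range, past Dixon's 95% critical value. These are 9 of 131 named genes that reach a mean of 1 FPKM, and chance flags about 1 in 20 groups; 5.46% of all expressed genes passed. None is one of the 7 risk gene orthologues. Liver 3 was high for Aff1, at the Hsd17b13 locus (ratio 0.903, 4.45 FPKM against 2.90 to 3.03 in the others), Parvb, at the Pnpla3 locus (ratio 0.851), Axin2 (0.830, 3.87 against 1.94 to 2.21 FPKM) and Thrsp (0.882, 2012 against 1215 to 1289 FPKM). Liver 4 was high for Tor1b (0.905, 19.3 against 16.1 to 16.4 FPKM) and low for BC037034 (0.836, 4.58 against 6.66 to 7.15 FPKM); BC037034 was named for a profile near that of Pnpla3, which is low in liver 4, so this choice favoured such a gap. Liver 2 was high for Orm1 (0.911, 1631 against 758 to 812 FPKM) and low for Pnpla7 (0.841, 21.7 against 30.3 to 32.2 FPKM). Liver 1 was high for Soat2 (0.837, 19.7 against 15.98 to 16.5 FPKM).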

How the results depend on the processing

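No paired analysis was possible because the livers form a single group. The mean levels of the 7 genes moved by less than 1 SD under all 42 alternatives computed for them. Leaving out 1 of 4 livers cannot move a mean by as much as 1 SD. The scaling factors lay between 0.969 and 1.06, so this result says little about how stable the levels are. The order of levels had 4 or 5 pairs with ranges that did not overlap when a liver was left out. Without liver 1 Mboat7 passed Trib1. All 7 reached a mean of 1 FPKM under each alternative computed for that count. The spread changed with the livers and settings used. Leaving out a liver gave an SD of 0.098 to 0.41 for Pnpla3, 0.12 to 0.29 for Tm6sf2, 0.051 to 0.16 for Gckr, 0.21 to 0.38 for Hsd17b13, 0.061 to 0.15 for Marc1, 0.15 to 0.27 for Mboat7 and 0.056 to 0.083 for Trib1, and 0 to 1 genes with a 2-fold range. The SD of Pnpla3 was 0.57 with a pseudocount of 0.1 and 0.12 with 5, by the construction of the scale. With equal totals apart from the 100 most abundant genes it was 0.069 for Marc1 and 0.11 for Trib1, and centring on GC content gave 0.11 for Trib1. The gap ratio passed the critical value for 1 gene with median-ratio scaling, Gckr (0.910), and for 1 with GC centring, Pnpla3 (0.837); the cause was not tested. The gap ratio was not computed for 3 livers. Below about 1 FPKM the values rest on few fragments.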
